A study of Mus musculus with 7 samples.

Results

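The carboxylesterase genes Ces1c, Ces1d, Ces1e, Ces1f, Ces1g, Ces2a, Ces2b, Ces2c and Ces2e were followed in epithelial cells of the mouse intestine after tamoxifen was given to delete Mob1a and Mob1b. The products of both targeted genes are co-activators of the Lats kinases in Hippo signalling. The 9 genes of 20887 named on the array were chosen by name, and every probe whose accession belonged to one of them was taken, which gave 12 of the 55681 probes of the array: 1 each for 7 genes, 3 for Ces2c and 2 for Ces2e. Expression was measured on 7 arrays of 1 colour, each hybridised with total RNA from epithelial cells that had been detached with 2 mM EDTA from the proximal intestine of male mice. All mice were backcrossed more than 6 generations to C57BL/6J, carried the floxed alleles Mob1a f/f; Mob1b f/f, and received tamoxifen intraperitoneally at 80 mg/kg per day for 2 days at 8 weeks of age. The control group (2 arrays) is labelled wild type and carried the floxed alleles without Cre, so that controls lacked both the recombination and the Cre protein, and these cannot be told apart. The knockout groups carried in addition Villin-creERT2, a tamoxifen-activated Cre under the Villin promoter, which is active in intestinal epithelium, and were taken at day 4 (2 arrays), day 7 (2 arrays) and day 10 (1 array) after tamoxifen. The labels place the controls at day 7, whereas the design text of the series speaks of day 0 and names no day 10 sample, so the day of the controls is not settled.

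Carboxylesterases are serine hydrolases of the endoplasmic reticulum lumen that split ester, thioester and amide bonds. They activate or clear ester drugs and other foreign compounds, and several of them also hydrolyse triacylglycerols and other neutral lipids. In the mouse the genes multiplied by tandem duplication, with the Ces1 group best known from liver, lung and plasma and the Ces2 group from small intestine and liver.

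In these cells the members were lower in the knockout groups, and their probes did not all pass the test on the same day. None differed from control past the test at day 4. At day 7 all 5 Ces1 genes and Ces2a were lower by between 7.76-fold (Ces1e) and 57.0-fold (Ces1f) where at least 1 day 7 array still measured them, and Ces1c by at least 3.95-fold in the processed signal. With another background correction (normexp) Ces1c differed by -1.08 on the log2 scale and was not called (limma, adjusted p = 0.068). Without 1 or the other day 7 array the fold was 4.65 or 12.9 for Ces1e and 28.8 or 113 for Ces1f. The probes of Ces2b, Ces2c and Ces2e differed by -1.42 to -0.82 on the log2 scale at day 7. Of these, the brightest Ces2c probe and the dimmer Ces2e probe passed the test at that time. Whether the Ces1 and Ces2 groups differed from each other was not tested. All of these probes fell further by day 10, a group of 1 array, when all 12 probes had passed the test. Among all tested probes 4.57% were called lower and 3.07% higher at day 7, and 17.7% lower and 10.6% higher at day 10. Ces2a was 2326-fold lower than in controls at day 10 (762-fold with normexp). Fewer cells of a type and less RNA per cell cannot be told apart in RNA from such bulk preparations.

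The genes lie in 2 clusters on mouse chromosome 8. In the RefSeq annotation of GRCm38.p6 the first runs from Ces1a to Ces1h and Ces5a. The second, whose first promoter window starts 11.2 Mb beyond that of Ces5a, holds Ces2a, Ces2b, Ces2c, the pseudogene Ces2d-ps, Ces2e to Ces2h, Ces3a, Ces3b and Ces4a. RefSeq promoter windows, from 250 bases before to 50 bases after the start of the gene, were matched for 6 of the 9 members. They are given here with that of Ces2f, the neighbour of Ces2e, whose signal was higher in the knockout. Ces2f was above background on the knockout arrays alone, which limits any contrast of its window with those of the members. Capitals mark every match to 7 motifs, on either strand, and lower case marks all other bases.
Ces1c, chr8:93131234-93131533: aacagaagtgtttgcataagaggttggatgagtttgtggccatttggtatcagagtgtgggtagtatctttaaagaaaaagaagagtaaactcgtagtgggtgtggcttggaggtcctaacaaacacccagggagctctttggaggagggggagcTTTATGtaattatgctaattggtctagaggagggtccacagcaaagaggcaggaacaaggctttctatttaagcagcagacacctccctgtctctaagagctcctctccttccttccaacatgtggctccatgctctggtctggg
Ces1e, chr8:93229570-93229869: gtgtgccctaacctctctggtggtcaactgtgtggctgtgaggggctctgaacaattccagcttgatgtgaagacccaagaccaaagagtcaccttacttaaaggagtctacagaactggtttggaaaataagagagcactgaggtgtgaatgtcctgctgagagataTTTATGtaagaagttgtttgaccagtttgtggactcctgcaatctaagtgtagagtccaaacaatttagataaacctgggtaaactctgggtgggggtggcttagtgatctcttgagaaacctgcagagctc
Ces1g, chr8:93337160-93337459: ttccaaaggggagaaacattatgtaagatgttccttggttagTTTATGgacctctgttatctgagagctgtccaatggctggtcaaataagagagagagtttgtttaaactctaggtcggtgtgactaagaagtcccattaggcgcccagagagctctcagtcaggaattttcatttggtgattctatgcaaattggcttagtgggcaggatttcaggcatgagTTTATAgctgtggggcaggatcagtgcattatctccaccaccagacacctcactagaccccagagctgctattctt
Ces2a, chr8:104733753-104734052: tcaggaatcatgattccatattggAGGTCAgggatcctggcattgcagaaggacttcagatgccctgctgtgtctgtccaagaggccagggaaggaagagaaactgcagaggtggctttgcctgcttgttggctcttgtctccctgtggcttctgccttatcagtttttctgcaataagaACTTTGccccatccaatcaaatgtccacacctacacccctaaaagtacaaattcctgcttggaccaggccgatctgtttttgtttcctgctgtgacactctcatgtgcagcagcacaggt
Ces2c, chr8:104846818-104847117: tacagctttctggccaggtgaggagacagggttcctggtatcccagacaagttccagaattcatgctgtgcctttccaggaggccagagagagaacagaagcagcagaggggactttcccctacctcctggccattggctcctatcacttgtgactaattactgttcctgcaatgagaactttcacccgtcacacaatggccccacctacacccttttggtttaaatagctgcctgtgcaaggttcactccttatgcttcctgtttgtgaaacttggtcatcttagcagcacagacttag
Ces2e, chr8:104926010-104926309: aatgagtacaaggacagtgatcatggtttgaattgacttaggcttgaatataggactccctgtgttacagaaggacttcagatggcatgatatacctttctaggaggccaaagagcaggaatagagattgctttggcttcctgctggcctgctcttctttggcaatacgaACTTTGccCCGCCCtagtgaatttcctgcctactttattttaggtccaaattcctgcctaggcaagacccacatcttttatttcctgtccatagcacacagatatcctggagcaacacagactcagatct
Ces2f, chr8:104947106-104947405: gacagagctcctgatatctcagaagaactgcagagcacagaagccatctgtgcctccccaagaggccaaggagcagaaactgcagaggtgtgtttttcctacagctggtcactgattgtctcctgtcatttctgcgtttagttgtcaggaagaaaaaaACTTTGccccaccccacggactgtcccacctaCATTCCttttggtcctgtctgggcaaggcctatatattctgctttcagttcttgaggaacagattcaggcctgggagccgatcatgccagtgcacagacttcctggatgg
The windows of Ces1c, Ces1e and Ces1g lie on the minus strand and the others on the plus strand, and each is written 5′ to 3′ along its gene. Ces1d, Ces1f and Ces2b are named only.

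The 7 motifs were searched by their letters on both strands. TTTATG, a sequence bound by Cdx homeobox factors of the intestine, stood in all 3 Ces1 member windows and in none of the 3 Ces2 member windows. It lay 95 bases before the start of Ces1c, 82 before Ces1e and 208 before Ces1g. The windows of Ces1a and Ces1h, Ces1 genes outside the 9, did not hold TTTATG, so it does not mark the whole Ces1 group. TTTATG also stood 179 bases before the start of Ces2g, a Ces2 gene outside the 9 that was lower in the knockout. The windows of Ces1b, likewise outside the 9, held it at 85 or 8 bases before the start used. Ces1b, above background on 1 control and 1 day 7 array, differed by 0.10 at day 7 (limma, adjusted p = 0.965). TTTATG was held by 11.9% of 32851 RefSeq mouse promoters of the same length. CAAAGT, the first part of the core bound by Hnf4, stood in Ces2a at 70 bases and in Ces2e at 80 bases before the start, in its reverse complement ACTTTG, in Ces2f at 92 bases and in Ces2g at 117 bases. The share of all promoters with CAAAGT was 14.4%. The nuclear receptor hexamer AGGTCA (16.3% of promoters) stood in Ces2a alone among the members, the GC box GGGCGG (35.7%) in Ces2e alone and the TATA box TATAAA (13.6%) in Ces1g alone, where it lay 26 bases before the start as TTTATA. The Tead hexamer GGAATG (14.7%) and the Hnf1 sequence GTTAAT (7.1%) were in none of the 6 member windows, while Ces2f held GGAATG as CATTCC at 60 bases before its start. No match overlapped another in the printed windows. A match is a description of these letters and not a binding site. In global alignments the 3 Ces2 member windows were 55.5% to 66.9% identical, highest between Ces2a and Ces2c, the 3 Ces1 windows 47.1% to 55.2%, and windows of different groups 48.1% to 53.2%.

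Levels below are log2 signals of a probe relative to the 75th percentile of its array, so that they can be followed for 1 probe across arrays but not set against those of another probe. All 12 member probes were well above the scanner's background on at least 2 of 7 arrays, the filter that left 28956 probes to test, and none had an outlier spot. The 5 probes that were not above background everywhere, those of Ces1c, Ces1d, Ces1e and Ces1g and the dimmer one of Ces2e, were above it on all control and day 4 arrays. Ces1e and the Ces2e probe were also above it on both day 7 arrays. The passing of Ces1c, Ces1d and Ces1g rests on the control and day 4 arrays, where they were high. Their calls against those groups are therefore no independent support for a fall. Differences are in log2 units with the standard error (SE) of limma, and adjusted p is Benjamini-Hochberg over all probes tested. Close relatives in the family may share a probe's signal, and which member a probe measured was not tested.

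All arrays lay on 1 slide and between 45.2% and 51.3% of probes were above background, with no saturated spot. The first row of the slide held the control and day 4 arrays and the second those of day 7 and day 10, so the differences between these pairs of groups and an effect of slide row cannot be told apart. Mob1b, a targeted gene, was lower than both controls on every knockout array, with differences of -1.43 ± 0.22 at day 4 (limma, adjusted p = 0.191) and -1.59 ± 0.22 at day 7 (adjusted p = 0.0133) for its brighter probe. The only Mob1a probe was dim, above background on 1 of the 2 control arrays. Its difference from control was -0.27 ± 0.25 at day 4 (limma, adjusted p = 0.939). By day 7 the difference was 0.25 ± 0.25, with an adjusted p of 0.59. The day 10 array, labelled a knockout, was higher than both controls for this probe by 1.60 ± 0.30, and its adjusted p was 0.011. Where the Mob1a and Mob1b probes lie relative to the deleted exons is not given in the sources used here, so the Mob1a probe does not check the labels. Pan-epithelial markers summed to between 10.3 and 10.7 (log2) on every array, and all 9 were present. Such a sum weighs the brightest markers most and does not show that each was steady. By limma 1 of the 9 was called lower than in controls at day 7, and 2 were called higher and 2 lower at day 10. Enterocyte markers summed to between 11.2 and 11.8 up to day 7 and to 8.80 on the day 10 array.

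**Figure D1:**
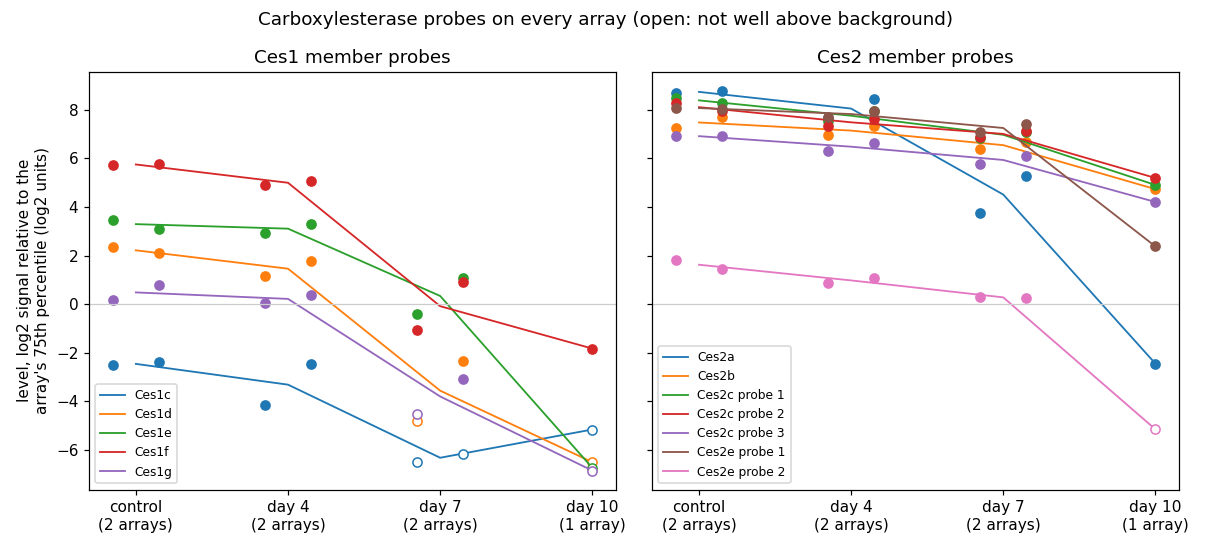
Level of each carboxylesterase probe on each array (vertical axis, log2 signal relative to the array's 75th percentile) by group (horizontal axis), with Ces1 genes left and Ces2 genes right. Each point is 1 array, open where the probe was not well above background, and lines join group means. The Ces1 probes and Ces2a drop between day 4 and day 7. Between day 7 and day 10 Ces1e and Ces2a drop again, by more than before, and Ces2e has its main drop.

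Ces1f was the only Ces1 gene whose probe stayed above background on all 7 arrays. Its levels were 5.71 and 5.78 in controls, 4.92 and 5.07 at day 4, -1.07 and 0.90 at day 7 and -1.83 at day 10. The groups did not overlap, and the drop between day 4 and day 7 was far larger than the gap between arrays of a group. The difference from control was -5.83 ± 0.60 at day 7 (limma, adjusted p = 0.00557, 57.0-fold lower, n = 2 and 2) and -7.58 ± 0.73 at day 10 (adjusted p = 0.00108, 191-fold lower). The day 7 fold was 28.8 without replicate 1 of that day and 113 without replicate 2. Only 0.0276% of all tested probes had a lower difference at day 7.

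Ces1d, known in mouse liver as triacylglycerol hydrolase, which mobilises stored lipid for lipoprotein secretion, ran in parallel. It gave 2.33 and 2.10 in controls, 1.15 and 1.77 at day 4, -4.80 and -2.32 at day 7 and -6.50 at day 10. Neither the lower day 7 array nor the day 10 array was above background, so 1 of 2 day 7 arrays measured it. The difference at day 7 was -5.77 ± 0.75 (limma, adjusted p = 0.0112, 54.7-fold lower), and at day 10 the gene was at least 107-fold lower than in controls (adjusted p = 0.00148). A bound is given where no array of a group measured the probe, against the lowest signal above background on those arrays or the probe's own signal if higher. These bounds are not strict limits, since a probe can be brighter than that lowest signal and still not be above background. Mob1a on day 7 replicate 1 was such a case, at -3.67 against a lowest signal of -4.14. Without day 7 replicate 1 the day 7 fold of Ces1d was 23.2, and without replicate 2 it was at least 81.9. Folds and bounds of dim probes hold for the processed signal only: with normexp, which adds an offset of 50 to every signal, Ces1d differed by -3.97 at day 7 and by -5.13 at day 10, and both were called.

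Ces1g, whose loss raises plasma lipids in mice, gave 0.18 and 0.78 in controls, 0.05 and 0.38 at day 4, -4.53 and -3.07 at day 7 and -6.85 at day 10. Control and day 4 arrays overlapped, and all later arrays lay below them. The lower day 7 array and the day 10 array were not above background. The difference was -4.28 ± 0.50 at day 7 (limma, adjusted p = 0.008, 19.4-fold lower, measured on 1 of 2 day 7 arrays), and Ces1g was at least 32.3-fold lower at day 10 (adjusted p = 0.000699). The day 7 fold was 11.7 without replicate 1 of that day and at least 24.6 without replicate 2, and with normexp the folds were 7.38 and 14.6.

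Ces1e, also named egasyn, which holds beta-glucuronidase in the endoplasmic reticulum, had levels of 3.47 and 3.11 in controls, 2.92 and 3.29 at day 4, -0.40 and 1.07 at day 7 and -6.74, not above background, at day 10. The day 4 arrays lay within or just below the control range, and the signal was lost on the day 10 array. At day 7 the difference was -2.96 ± 0.49 (limma, adjusted p = 0.0208, 7.76-fold lower), and at day 10 it was at least 226-fold lower (adjusted p = 0.000275). The step from day 7 to day 10 was itself past the test, at least 29.2-fold lower (adjusted p = 0.00143), or at least 48.7-fold and 17.5-fold without day 7 replicate 1 and 2. The same arrays moved the day 7 fold against control to 4.65 and 12.9, and normexp moved the day 10 fold to 83.6.

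Ces1c, which encodes an esterase secreted into mouse plasma, was dim throughout. It read -2.52 and -2.40 in controls, -4.15 and -2.47 at day 4, and was not above background on either day 7 array (-6.48 and -6.16) or at day 10 (-5.16). The day 4 arrays differed from each other by more than any other pair of replicates of this probe. Ces1c was at least 3.95-fold lower at day 7 (limma, adjusted p = 0.0126) and at least 4.20-fold lower at day 10 (adjusted p = 0.0253) than in controls. With normexp the day 7 difference was -1.08 and not called (adjusted p = 0.068), and that of day 10 was 2.57-fold. Day 7 and day 10 values have no order, since both lay at background.

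Ces2a was the Ces2 member with the widest range. Its levels were 8.69 and 8.78 in controls, 7.66 and 8.43 at day 4, 3.73 and 5.28 at day 7 and -2.45 at day 10, above background on every array. As a share of the control mean, the signal was 47.6% and 81.1% at day 4, 3.12% and 9.15% at day 7 and 0.043% at day 10, with no overlap between groups. The difference was -4.23 ± 0.53 at day 7 (limma, adjusted p = 0.00996, 18.7-fold lower) and -11.18 ± 0.65 at day 10 (adjusted p = 0.000266, 2326-fold lower). At day 10, 0.0207% of tested probes had a lower difference. Between day 7 and day 10 the gene fell by 6.96 ± 0.65 (adjusted p = 0.00183, 124-fold). Without day 7 replicate 1 or 2 that fold was 213 or 72.5, and the day 7 fold against control 10.9 or 32.1. With normexp Ces2a was 12.5-fold lower at day 7 and 762-fold at day 10. Its control levels were close after the scanner's spatial correction, but the background-subtracted signals were 41258 and 144533. Day 4, at 71887 and 112626 before that correction, lay between the controls, and day 7, at 3304 and 12407, lay below both.

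Ces2c, a triacylglycerol and diacylglycerol hydrolase of mouse liver and intestine, had 3 probes. Its brightest gave 8.50 and 8.27 in controls, 7.55 and 7.96 at day 4, 6.84 and 7.09 at day 7 and 4.90 at day 10. Each group lay below the one before it without overlap, and the same held for the other probes of the gene. At day 7 that probe was lower by 2.67-fold (-1.42 ± 0.25, limma, adjusted p = 0.0252), while the second and the third missed the threshold at -1.10 ± 0.25 (adjusted p = 0.0507) and -0.98 ± 0.24 (adjusted p = 0.0622). At day 10 the probes were 11.2-fold, 7.54-fold and 6.53-fold lower, and their adjusted p were 0.000796, 0.00136 and 0.0015.

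Ces2e had 2 probes that followed the same course. The brighter one gave 8.09 and 8.05 in controls, 7.69 and 7.96 at day 4, 7.07 and 7.43 at day 7 and 2.37 at day 10. The day 4 and day 7 groups stepped down by little, and the day 10 array stood far below all others. Its difference was -0.82 ± 0.24 at day 7 (limma, adjusted p = 0.102) and -5.69 ± 0.29 at day 10 (adjusted p = 0.00023, 51.8-fold lower). The dimmer probe gave 1.81 and 1.43 in controls, 0.87 and 1.09 at day 4, 0.31 and 0.25 at day 7, and was not above background at day 10 (-5.15). It passed the test at day 7 (-1.34 ± 0.23, adjusted p = 0.0248, 2.54-fold lower) and was at least 71.1-fold lower at day 10 (adjusted p = 0.00022), and 20.7-fold with normexp. The probes disagreed on the call at day 7 but not on direction.

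Ces2b has 1 probe here, above background on every array. It gave 7.24 and 7.71 in controls, 6.95 and 7.33 at day 4, 6.40 and 6.68 at day 7 and 4.73 at day 10. In this processed signal day 4 overlapped with the controls, day 7 lay below both, and day 10 lay lowest. The difference of -0.93 ± 0.27 at day 7 missed the threshold (limma, adjusted p = 0.106), and the gene was 6.70-fold lower at day 10 (-2.74 ± 0.33, adjusted p = 0.0024). With normexp these differences were -0.57 and -2.19. Before spatial correction and scaling, the background-subtracted signals were 19819 and 69846 in controls and 21028 and 32699 at day 7. There both day 7 arrays lay above control replicate 1.

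The first comparison asked what differed from control 4 days after tamoxifen. All 12 probes had a lower mean at day 4 than in controls, by between -0.86 (Ces1c) and -0.19 (Ces1e). In 8 of the 12 the groups did not overlap, but the share of all tested probes without overlap was not computed, so this count cannot be judged. By limma none of the 12 was called at an adjusted p under 0.05, and 3 had an unadjusted p under 0.05 (the brighter probes of Ces2c and the dimmer Ces2e probe). Over all tested probes 0% were called lower and 0.0311% higher, 1047 were lower and 760 higher at an unadjusted p under 0.05, and 60.9% had a lower mean. The median difference was -0.63 over the members and -0.08 over all probes. The sign at day 4 turned for Ces2a and Ces2b with normexp. On control replicate 1 the scanner software had raised their signals 3.16-fold and 2.40-fold over the background-subtracted value, against at most 1.13-fold on the other control, day 4, day 10 and second day 7 arrays, and with normexp on the uncorrected signals the day 4 differences were 0.05 for Ces2a and 0.20 for Ces2b. The part of the spatial correction in these signs was not tested. For Ces1g the sign rests on control replicate 2, without which the difference was 0.03.

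At day 7, 8 of the 12 probes were lower past the test and none higher: all 5 Ces1 probes, Ces2a, the brightest Ces2c probe and the dimmer Ces2e probe. Ces1c, Ces1d and Ces1g had passed the filter through the control and day 4 arrays, so their part of this count is no independent support. Without the filter 5 were called, Ces1c, Ces1d and Ces1g among them. Among all tested probes 4.57% were called lower and 3.07% higher. In the processed signal day 7 arrays lay below control arrays for all 12, and the share of all tested probes that did so was not computed. The median difference was -4.28 over the 5 Ces1 probes and -1.10 over the 7 Ces2 probes, beside -0.08 over all probes, and the difference between the gene groups was not tested. The day 7 arrays differed most in Ces1d, Ces1e, Ces1f, Ces1g and Ces2a (SD 1.03 to 1.75, n = 2, against 0.04 to 0.26 for the other 7 probes), and replicate 1 was the lower one in each of these 5. The calls of Ces1f, Ces1g and Ces2a held under every alternative run. Without control replicate 1 only these 3 of the 12 were called. Then Ces1c, Ces1d and Ces1e had adjusted p of 0.058, 0.055 and 0.10, and the called Ces2c and Ces2e probes 0.14 each. Without control replicate 2, either day 4 array or day 7 replicate 1 the count was 5, with adjusted p of 0.057 for Ces1e without control replicate 2, 0.059 for Ces1e without either day 4 array, 0.07 for Ces1c without day 7 replicate 1, and between 0.051 and 0.11 for the Ces2c and Ces2e probes in these fits. Without day 7 replicate 2 it was 7, the Ces2e probe having an adjusted p of 0.062.

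**Figure D2:**
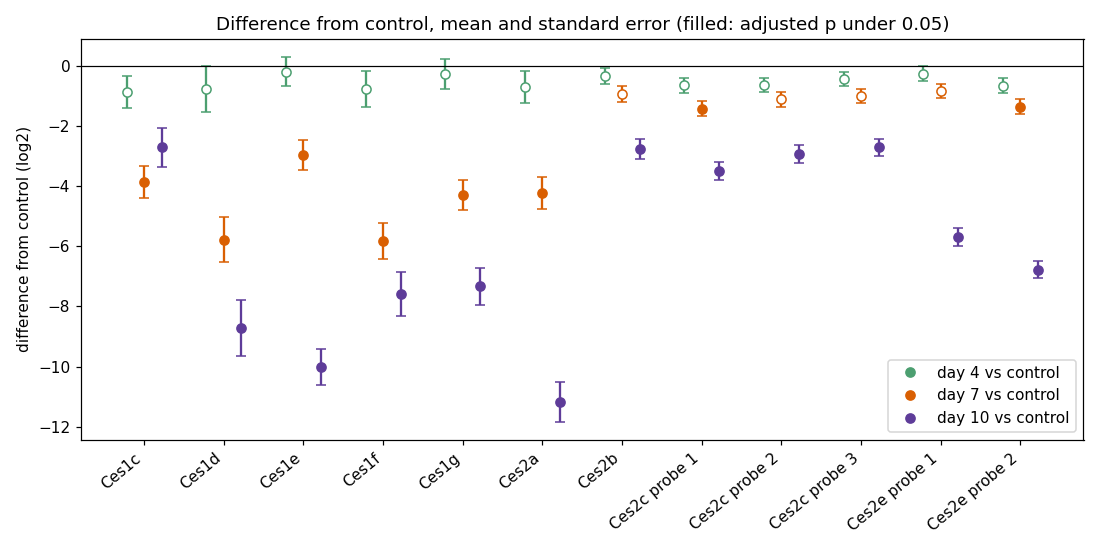
Difference from control of each carboxylesterase probe (vertical axis, log2) at day 4, day 7 and day 10, with bars of 1 standard error from limma and filled points where the adjusted p was under 0.05. All 12 day 4 points are open, 8 day 7 points and all day 10 points are filled, and the day 10 point of Ces1c is the only one above its day 7 point, where both groups lay at background.

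At day 10 all 12 probes were lower than in controls past the test, while 17.7% of all tested probes were called lower and 10.6% higher. With the scaling taken over probes detected on all arrays, lower calls made up 50.3% of all calls in place of 62.7%, and the 12 members were again called. The median difference was -7.58 over the Ces1 probes and -3.48 over the Ces2 probes, against -0.14 over all probes. Day 10 had 1 array, so its values have no replicate and the fit takes its spread from the other groups. On that array 17 of 18 enterocyte markers were still above background, all 18 were called lower than in controls with a median difference of -3.46, and the T cell markers summed to 1.24 against 3.87 to 4.25 on the other arrays. Macrophage markers summed to 6.28 there, against 4.59 to 5.69. The part of these shifts in the carboxylesterase values was not tested. Without either control array Ces1c was no longer called at day 10 (adjusted p = 0.065 and 0.067).

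The steps between the knockout groups were compared as well, and they share arrays with the comparisons above. From day 4 to day 7, 6 of the 12 probes fell past the test, where 1.55% of all probes were called lower and 1.3% higher. These were Ces1f (-5.08 ± 0.60, limma, adjusted p = 0.0185), Ces1d (-5.02 ± 0.75, adjusted p = 0.0329), Ces1g (-4.01 ± 0.50, adjusted p = 0.021), Ces2a (-3.54 ± 0.53, adjusted p = 0.0329), Ces1c (at least 2.18-fold lower, adjusted p = 0.0449) and Ces1e (-2.77 ± 0.49, adjusted p = 0.0455). The other 6, of Ces2b, Ces2c and Ces2e, differed by -0.78 to -0.48 and had adjusted p of 0.176 or more. The count rests on single arrays: it was 2 without either control array, 1 without day 4 replicate 1, 0 without day 4 replicate 2, 3 without day 7 replicate 1 and 5 without day 7 replicate 2. With median scaling, lower calls were 65.2% of all calls in this step in place of 54.4%, and the 6 members were again called. With the scaling over probes detected on all arrays 4 were called, Ces1c and Ces1e having adjusted p of 0.051 and 0.057, and with normexp 5, Ces1c having 0.42. Without day 7 replicate 1 or 2 the folds were 17.1 or 66.9 for Ces1f, 6.79 or 19.9 for Ces2a, 4.09 or 11.4 for Ces1e, 13.8 or at least 48.5 for Ces1d and 9.75 or at least 20.5 for Ces1g.

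From day 7 to day 10, 9 of the 12 fell past the test, where 10.7% of all probes were called lower and 7.19% higher (48.7% of the calls lower, in place of 59.8%, with the scaling over probes detected on all arrays). All 7 Ces2 probes were among them, led by Ces2a and then by Ces2e, whose brighter probe fell by 4.87 ± 0.29 (limma, adjusted p = 0.000781, 29.3-fold) and whose dimmer probe was at least 28.0-fold lower (adjusted p = 0.00067). Ces2b and the Ces2c probes fell by between 1.73 and 2.06. Of the Ces1 genes, Ces1e and Ces1g (at least 1.66-fold lower, adjusted p = 0.021, measured on 1 of 2 day 7 arrays) passed. Ces1f, at -1.74 ± 0.73 (adjusted p = 0.162), and Ces1d, at least 1.96-fold lower (adjusted p = 0.0806), did not, but without day 7 replicate 1 both were called, Ces1f at -2.73 (adjusted p = 0.00706) and Ces1d at least 4.61-fold lower (adjusted p = 0.00637). The call of Ces1g was lost without either day 4 array (adjusted p = 0.052) and that of Ces2b without day 7 replicate 2 (adjusted p = 0.051) and with normexp (0.10). The third Ces2c probe was lost with only the groups compared in the fit (0.051).

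In order, then, control and day 4 levels did not differ past the test for any member. Day 7 lay below day 4 past the test for the Ces1 genes and Ces2a, but none of these calls held without the filter on dim probes. For Ces1c both day 7 arrays lay at background, and with normexp the difference was -0.60. Day 10 lay below day 7 for Ces1e and all Ces2 genes. For Ces1g it did so past the test, but that order rests on day 7 replicate 2, without which both groups lay at background. Day 7 and day 10 did not differ past the test for Ces1d and Ces1f, and for Ces1c they could not be ordered.

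Among the remaining carboxylesterase genes the direction was not uniform. Of 9 such genes with a probe, 6 passed the filter, and the probes of Ces1a, Ces4a and Ces5a were above background on no array. No probe was matched to Ces1h or Ces2d-ps. Ces2f was higher: its levels were -6.14 and -4.53 in controls, neither above background, -3.58 and -3.95 at day 4, -2.21 and -2.29 at day 7 and -1.61 at day 10. Every knockout array lay above both controls. Ces2f passed the filter through the knockout arrays alone, the groups where it was high, so its calls are no independent support for a rise. In the processed signal it was at least 5.17-fold higher at day 7 (limma, adjusted p = 0.0209) and at least 8.09-fold higher at day 10 (adjusted p = 0.0074). The day 7 call was lost without either day 4 array (adjusted p = 0.060) and without day 7 replicate 1 (0.10) or 2 (0.063), without the filter on dim probes (0.054) and with only the groups compared (0.060). The day 10 call was lost with only the groups compared (0.065). With normexp Ces2f was called at both times, at 1.80-fold and 2.13-fold higher, below the bounds of the processed signal.

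Ces2g ran the other way, with 3.19 and 3.06 in controls, 2.31 and 2.75 at day 4, 0.77 and 1.34 at day 7 and 0.33 at day 10. The groups did not overlap. The differences were -2.07 ± 0.29 at day 7 (limma, adjusted p = 0.0134) and -2.79 ± 0.35 at day 10, the latter with an adjusted p of 0.00271. The day 7 call was lost without control replicate 1 (adjusted p = 0.072) or day 7 replicate 1 (0.052). Ces3a differed by -2.85 ± 0.70 at day 7 (adjusted p = 0.0672) and was at least 24.7-fold lower at day 10 (adjusted p = 0.0046). Ces1b, Ces2h and Ces3b were called at neither time. Over the 6 tested genes of this list 1 rose and 1 fell at day 7, with a median of -1.41, and 1 rose and 2 fell at day 10, with a median of -2.01.

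**Figure D3:**
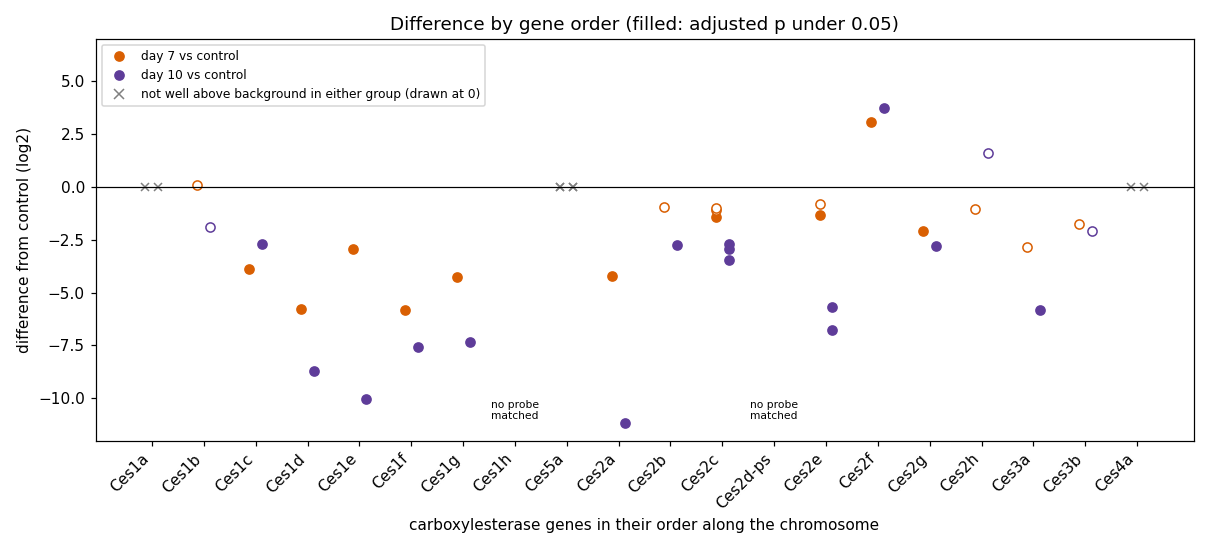
Difference from control (vertical axis, log2) for the probes of the 20 carboxylesterase genes in their order along mouse chromosome 8 (horizontal axis, rank only) at day 7 and day 10, with filled points where the adjusted p was under 0.05 and crosses where neither group was above background. Ces2f, between Ces2e and Ces2g, is the only gene with filled points above 0.

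Other enzymes that act on the same kinds of compounds were read beside the members. Of 22 tested conjugation, oxidation and efflux genes of drug metabolism, 10 fell and none rose at day 7 (median -1.13), and 17 fell and 1 rose at day 10 (median -3.41). Among the named ones, the glucuronosyltransferase Ugt2b5 was 13.4-fold lower at day 7 (limma, adjusted p = 0.00623), Ugt1a6a 4.94-fold (adjusted p = 0.00989) and the drug efflux pump Abcb1a 4.32-fold (adjusted p = 0.0131). Of 20 tested lipid and ester hydrolases outside the family, 3 fell and none rose at day 7 (median -0.64). Those were Aadac, a microsomal esterase (2.32-fold lower, adjusted p = 0.0317), Faah, which hydrolyses fatty acid amides (6.48-fold, adjusted p = 0.0275), and Mgll, the monoacylglycerol lipase (3.80-fold, adjusted p = 0.0444). By day 10, 10 had fallen and 1 had risen, and Aadac was 522-fold lower (adjusted p = 0.00016).

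None of the 19 tested genes of triglyceride synthesis, storage and chylomicron assembly was called by limma at day 7, when the median was -0.42 and 3 had an unadjusted p under 0.05. Dgat1 and Dgat2, which make triacylglycerol, and the lipid droplet protein Plin2 were those 3, with differences of -0.96, -1.12 and -0.88 and adjusted p of 0.123, 0.08 and 0.158. At day 10, 13 of the 19 fell and none rose (median -2.29). Of 19 regulators known to act on carboxylesterase genes or on enterocyte genes at large, 2 fell at day 7: the xenobiotic receptor Nr1i3 (-1.62 ± 0.22, limma, adjusted p = 0.013) and the sterol receptor Nr1h3 (-1.46 ± 0.24, adjusted p = 0.0213). Ppara differed by -1.20 ± 0.31 (adjusted p = 0.0745). Hnf4a, at 0.15, and Cdx2, at 0.46, whose families bind motifs searched above and which were picked after their values were seen, were not called at day 7. Cdx1, of the pan-epithelial list, fell by 0.98 ± 0.20 at day 7 (adjusted p = 0.0407) and by 2.85 ± 0.25 at day 10 (adjusted p = 0.000771), and Hnf4g, chosen in the same way, differed by -0.07 at day 7 and fell by 3.07 ± 0.25 at day 10 (adjusted p = 0.000673). At day 10, 10 of the 19 regulators fell and none rose (median -1.26).

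Of 18 enterocyte markers 4 fell at day 7 (median -0.45), among them Rbp2, a retinol-binding protein (2.73-fold lower, limma, adjusted p = 0.0211), and the hexose carriers Slc2a2 (3.06-fold, adjusted p = 0.027) and Slc2a5 (3.21-fold, adjusted p = 0.0373). Of the 102 distinct genes tested in the 6 lists, none was called by limma at day 4 and 6 had an unadjusted p under 0.05.

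Several members are abundant in liver, so markers of hepatocytes were read too. Of 7 with a probe, Fgb was above background on no array, and the list summed to between 2.85 and 4.03 up to day 7 and to 4.66 at day 10. Of its 6 tested genes 1 rose and 1 fell at day 7, and 1 rose and 5 fell at day 10 (median -3.23). The one that rose was Tat, a tyrosine aminotransferase, by 2.07 at day 7 (limma, adjusted p = 0.0151) and by 7.38 at day 10 (adjusted p = 0.000227). Fat cell markers, of which 5 of 6 were above background on no array, and acinar pancreas markers, 6 of 8, were at or near background throughout. Fibroblast, smooth muscle, endothelial and B and plasma cell lists had at most 4 genes above background on any array.

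**Figure D4:**
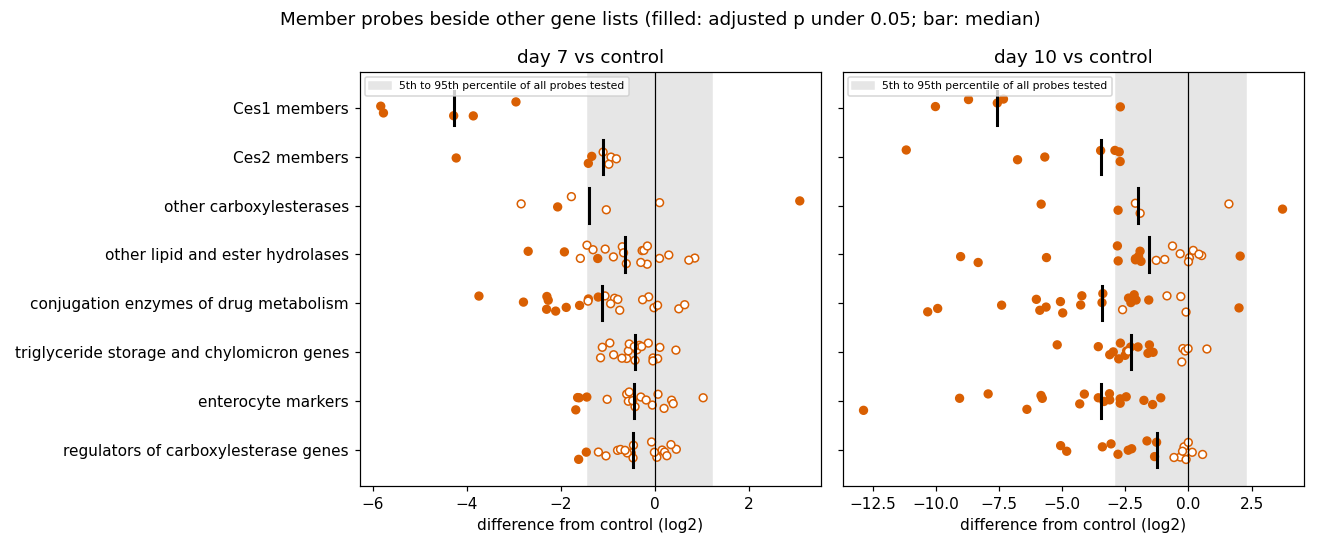
Difference from control (horizontal axis, log2) of the member probes and of 6 gene lists (vertical axis) at day 7, left, and day 10, right, 1 point per probe or gene, filled where the adjusted p was under 0.05, with a bar at the median and grey from the 5th to the 95th percentile of all tested probes. All 5 Ces1 points and Ces2a lie left of the grey area at day 7, when the medians of the 6 lists lie inside it. At day 10 the medians of the conjugation list and of the enterocyte markers lie left of it.

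Profiles most like those of the members were found by the root mean square distance over the 7 arrays, each profile taken relative to its control mean, among 13793 genes with a symbol. For Ces1f, the Ces1 probe with the highest mean over the arrays, the nearest were the cytochrome P450 gene Cyp2c55 (distance 0.67 log2 units), the aldo-keto reductase Akr1c14 (0.71) and the kallikreins Klk1b5 (0.81), Klk1 (0.81) and Klk1b4 (0.85). Their differences at day 7 ran from -6.87 (Cyp2c55) to -5.21 (Klk1b5). For the brightest Ces2c probe the nearest were Capn8, a calpain of the gut epithelium (0.12), Ms4a10 (0.12), Ero1b, an oxidase of the endoplasmic reticulum (0.12), Tmem86b (0.13) and Ddc, the aromatic amino acid decarboxylase (0.14). These 5 differed from control by -1.52 to -1.31 at day 7 and by -3.69 to -3.26 at day 10. The ranking is a description over 7 arrays that share their scaling.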

How the data were processed

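Per the file headers, the deposited intensity values came from Agilent Feature Extraction, version 11.5.1.1, with array design 028005. The column used, gProcessedSignal, is the background-subtracted, spatially detrended spot signal. The genome build label is mm9. The series' value table, deposited as intensity, equalled gProcessedSignal within 0.1% for every probe with a single spot and was used as an alternative.

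The members, lists and tests were chosen with earlier results of these data known. The files used here hold no gene name column, so probes were named by accession through RefSeq tables of GRCm38.p6 (27509 probes with 1 symbol, 28172 with none), and promoter windows come from the same source. Of 59305 non-control spots, outliers (115 to 274 per array) were left out and spots of a probe were averaged as log2 values minus the array's 75th percentile. limma 3.58.1 in R 4.3.3 fitted 1 mean per group over all 7 arrays, 2-sided, with Benjamini-Hochberg adjustment over 28956 probes above background on at least 2 arrays, called at an adjusted p under 0.05 (3 residual and 3.16 prior degrees of freedom). All groups were fitted together because each holds 1 or 2 arrays. The design text gives different mice as replicates, and correlations between replicates were 0.976 to 0.988. Deviations of same-numbered arrays correlated by 0.01, 0.09 and 0.25, so the numbers were not taken as pairs. In data simulated for day 7 against control, 100% of probes lowered by 4 log2 units, 80% of those lowered by 2 and 0% of those lowered by 1 were called. Only 50 probes per step were changed among 28956, and 17 unchanged probes were called. The real day 7 fit called 2211 probes and so had a looser cut-off, and these shares do not give its power.

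Named genes were all members, Mob1a and Mob1b, up to 3 genes per list with the smallest p at day 7, and the 5 profiles nearest to the brightest Ces1 and Ces2 probes. A list gene was represented by its brightest probe. Alternatives covered background correction (normexp, offset 50, on the median signal, which stood in for the mean signal not among the columns), scaling, filters, gene-level features, the groups fitted, a replicate block, the deposited table and leaving out each array. Leaving out the day 10 array was added after seeing the data. Precision is limited by the number of arrays. Promoters were aligned with Biopython 1.88.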

Additional observations from a re-analysis of the deposited data

Results flagged for a closer look

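The effect, meaning the difference of the knockout from control, was not the same at day 7 and day 4 for 6 of the member probes. This was a test of the difference itself, which reduces to day 7 minus day 4 because both times share the controls. In log2 units the day 7 effect was lower by -5.08 for Ces1f (limma, adjusted p = 0.0185), -5.02 for Ces1d (adjusted p = 0.0329), -4.01 for Ces1g (adjusted p = 0.021), -3.54 for Ces2a (adjusted p = 0.0329) and -2.77 for Ces1e (adjusted p = 0.0455). The fitted value for Ces1c was -3.01 (adjusted p = 0.0449), but both day 7 arrays lay at background, the bound is 2.18-fold, and with normexp the difference was -0.60 (adjusted p = 0.42). Both day 7 arrays lay below both day 4 arrays for each of the 6. The same arrays gave the calls, so this is no separate support. Slide row changed between the same groups and cannot be told apart from time.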

How the results depend on the processing

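The member count of 0 at day 4 was 0 under every alternative run. From day 7 to day 10 the count of 9 became 6 of 7 under the strict filter, 6 of 9 with 1 value per gene, and 8 to 11 without 1 array. At day 7 the count of 8 became 5 without the filter on dim probes, 5 of the 7 probes above background on all arrays, and 5 with only the groups compared, and ranged from 3 to 8 when 1 array was left out. At day 10 all 12 remained called except that 7 of 7 were left under the strict filter, and 11 to 12 without 1 array. From day 4 to day 7 the count of 6 became 0 without a filter, 2 of 7 under the strict filter and 2 with only the groups compared, with a range of 0 to 6 without 1 array. With the replicate number as a block the counts were 0, 8, 12, 6 and 9 for the 5 comparisons, as without it. Signs turned at day 4 with normexp for Ces2a (0.048) and Ces2b (0.198), from day 7 to day 10 with normexp for Ces1c (-0.283, at background), and at day 4 for Ces3a with quantile (0.0149), median (0.0494) or detected-probe (0.0461) scaling and the deposited table (0.0094). Leaving out 1 array gave -0.567 to 0.034 for Ces1g and -0.544 to 0.527 for Ces3a at day 4. The cause was not tested. Over all probes the calls at day 4 were 9, against 33 with median scaling, 21 under the strict filter, 5 with detected-probe scaling or only the groups compared, 3 with normexp, 3 with the block, 2 without a filter, and 1 to 9 without 1 array. At day 7 they were 2211, against 1159 without a filter, 1239 with only the groups compared and 657 to 2421 without 1 array. At day 10 they were 8185 and 5445 to 8807 without 1 array. From day 4 to day 7 they were 827, against 147 without a filter, 477 with only the groups compared, 478 with normexp and 0 to 1265 without 1 array, and from day 7 to day 10 they were 5184, against 3120 with only the groups compared. Median scaling moved the median of all probes to -0.32 at day 10. Probes at background limit the folds of Ces1c, Ces1d, Ces1e, Ces1g and Ces2e to bounds.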
